A study of Bos grunniens with 6 samples.

Results

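Simple epithelial keratins are the keratins of single-layered epithelia, ducts and glands. They were taken here as KRT7, KRT8, KRT18 and KRT19, by reading the rows of those symbols from the deposited expression table, where KRT18 stands under its older symbol PIG46. These are 4 of the 15646 genes in the table. KRT8 has 2 rows, and the one with the higher mean was used. KRT7 (ENSBGRG00000000608) and KRT8 (ENSBGRG00000001509) are type II keratins, and KRT18 (ENSBGRG00000001564) and KRT19 (ENSBGRG00000011563) are type I keratins.

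Messenger RNA was sequenced from 3 libraries of dermal papilla cells (DPC) and 3 libraries of hair matrix cells (HMC) of the yak, Bos grunniens. The papilla is the mesenchymal core of the hair bulb, and the matrix is the dividing epithelium over it from which the hair shaft grows. Per the labels, all cells came from skin, were of wild-type (WT) genotype, and were isolated and then grown in culture. Both groups shared one medium with 10% serum, 20 ng/mL of the epidermal growth factor EGF and 10 ng/mL of the insulin-like growth factor IGF1, per the labels' protocols, so no library stands for freshly isolated cells or for cells without these factors. The labels call the libraries biological replicates. They do not say whether these came from separate animals, nor give age, sex or passage, and p-values measure the spread between these cultures only.

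Keratins form intermediate filaments, the tough strands of the epithelial cytoskeleton. A keratin filament is built from pairs of 1 type I and 1 type II chain, and a chain without a partner is known from other mammals to be degraded. KRT8 and KRT18 are the usual pair of simple epithelia, and KRT7 and KRT19 are typical of ducts and glands. In mammalian skin these keratins are best known from sweat glands and Merkel cells, the touch-sensing cells of the epidermis, while KRT5 and KRT14 are the pair of its basal layer and other keratins fill the hair itself.

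The recovered reads of a library came to between 13.1 and 13.4 M in DPC and to between 13.7 and 14.0 M in HMC (M, mega); these are whole reads worked back from the steps of the deposited values. Genes averaging 0.5 FPKM or more were tested (FPKM, fragments scaled to gene length and to all mapped fragments), and a gene is called higher or lower where its limma adjusted p was under 0.05. The labels were set against marker genes. Of 11 tested genes of papilla cells and other fibroblasts, 10 were higher in DPC, a direction called for 29.7% of all tested genes. The 1 lower in DPC was LEF1, which stands in this list and in the matrix list below. The summed level of the papilla and fibroblast list was 18728 to 19498 FPKM in DPC and 615 to 727 FPKM in HMC. The papilla markers ALPL and CORIN lay near 0 in both groups, with means of 0.0145 and 0.0582 FPKM in DPC and 0.0187 and 0.160 FPKM in HMC. Of 7 tested genes of the hair matrix and its keratinocytes, 4 were higher in HMC, where 46.2% of all tested genes were called, and 1 was higher in DPC. Those higher in HMC include the basal keratin KRT5, with 38.1 FPKM in DPC against 1083 FPKM in HMC, and the hair follicle regulators LEF1, with 1.09 FPKM in DPC against 5.91 FPKM in HMC, and DLX3, with 0.253 FPKM in DPC against 3.93 FPKM in HMC. MSX2, another regulator of the follicle, was the one higher in DPC, with 6.15 FPKM in DPC against 2.47 FPKM in HMC. The matrix regulator FOXN1 averaged 0.00725 FPKM in DPC against 0.0912 FPKM in HMC, and the hair keratin KRT35 averaged 0 FPKM in DPC against 0.0695 FPKM in HMC. FOXN1 and KRT35 were thus near 0 in both groups.

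KRT7, KRT8, KRT18 and KRT19 were present in DPC at less than 1 part in 100 of their level in HMC, where they were among the most abundant transcripts. All 4 were lower in DPC, with log2 differences, DPC minus HMC, between -8.52 and -7.67. KRT19 kept the largest share of its HMC level in DPC, and KRT18 the smallest. For these 4 genes, the ratio of type I over type II mRNA in DPC was 1.66 times that in HMC, without overlap between the groups. The exact permutation test used for ratios cannot go below p = 0.1 with 3 libraries against 3.

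KRT7, a type II keratin of ducts and glands, measured 8.18, 8.36 and 10.7 FPKM in the DPC libraries, against 3683, 3674 and 3700 FPKM in the HMC libraries. The groups lay far apart, the HMC libraries were nearly alike, and the third DPC library was the highest of its group. The group means were 9.08 ± 1.41 FPKM in DPC against 3686 ± 13.6 FPKM in HMC (SD, n = 3 each), so that DPC held 0.246% of the HMC level. The difference was -8.52 on the log2(FPKM + 1) scale (SE 0.09, 95% interval -8.72 to -8.32, limma adjusted p = 5.81e-11). These values rested on 172, 172 and 223 recovered reads in DPC and on 79397 to 81558 in HMC. In bulk RNA, fewer cells that express a gene and less of its RNA in each cell cannot be told apart, and this holds for each difference given here.

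KRT8, the type II partner of KRT18, measured 8.74, 7.01 and 9.92 FPKM in DPC, against 3472, 3315 and 3269 FPKM in HMC. The second DPC library was the lowest and the first HMC library the highest, with no overlap between the groups. The means were 8.56 ± 1.46 FPKM in DPC against 3352 ± 106 FPKM in HMC (SD, n = 3 each), and DPC held 0.255% of the HMC level. The log2 difference was -8.47 (SE 0.10, limma adjusted p = 1.17e-10).

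KRT18, the type I partner of KRT8, was the scarcest of the set in both groups. It measured 2.09, 1.52 and 1.88 FPKM in DPC, against 988, 976 and 984 FPKM in HMC. The second DPC library was again the lowest, and the HMC libraries differed by little. With means of 1.83 ± 0.290 FPKM in DPC against 982 ± 6.05 FPKM in HMC (SD, n = 3 each), DPC held 0.186% of the HMC level. The log2 difference was -8.45 (SE 0.07, limma adjusted p = 4.83e-11), and the plain log2 ratio of the means, without the added 1, was -9.07. At 38, 27 and 34 recovered reads in DPC these were the fewest reads of the set, so counting error was largest here.

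KRT19, a short type I keratin of ducts and of the stem cell region of hair follicles, was the most abundant of the set in both groups. It measured 19.6, 18.1 and 19.6 FPKM in DPC, against 4175, 4032 and 4063 FPKM in HMC. The DPC libraries were closer to each other for KRT19 than for KRT7 and KRT8, and the groups did not overlap. The means were 19.1 ± 0.851 FPKM in DPC against 4090 ± 75.1 FPKM in HMC (SD, n = 3 each), and DPC held 0.468% of the HMC level. The log2 difference was -7.67 (SE 0.04, limma adjusted p = 7.24e-12), on 521 to 576 recovered reads in DPC.

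**Figure D1:**
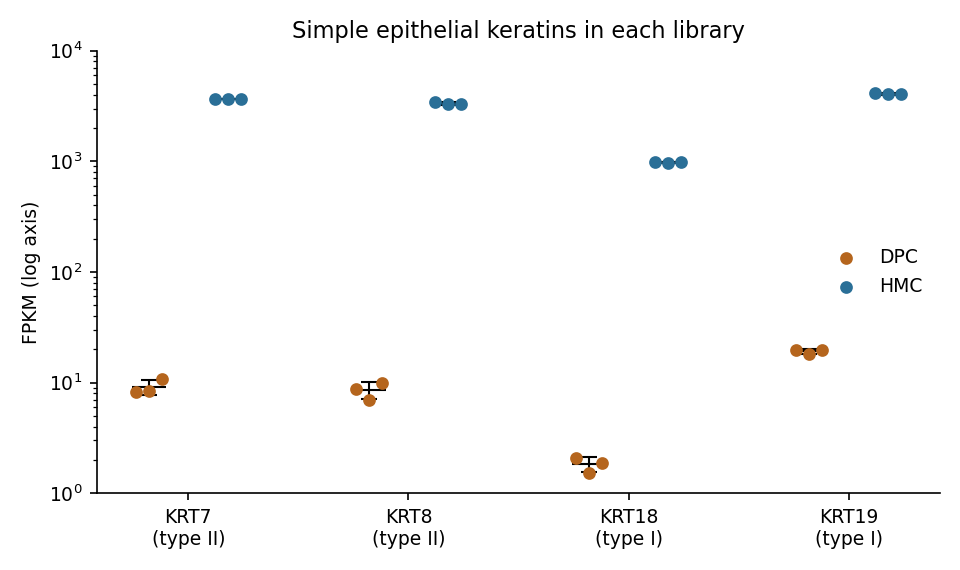
FPKM of KRT7, KRT8, KRT18 and KRT19 (log axis) in the 3 DPC libraries, left of the 3 HMC libraries of each gene. Points are libraries, and bars give the mean and SD. The DPC points lie between 1.52 and 19.6 FPKM and the HMC points between 976 and 4175 FPKM.

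All 4 genes passed the test with the lower level in DPC, and for all 4 the groups did not overlap. Among the 11883 genes tested, 75.9% were called in either direction and 46.2% with the lower level in DPC. The groups of 77.9% did not overlap in either direction, and 47.1% lay without overlap and lower in DPC. The calls alone therefore say little about these genes, since such differences were common. Their sizes were less common, as 16.1% of tested genes were called with at least a 2-fold higher level in HMC. Ordered by the log2 difference toward HMC, KRT7 had rank 2, KRT8 rank 4, KRT18 rank 5 and KRT19 rank 13. The median difference of all tested genes was -0.15 on the log2 scale in the deposited values, -0.02 with median-of-ratios rescaling and 0.04 with quantile normalization, so the scaling moves these values by little against their size.

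By level among all genes, KRT19 had ranks between 4054 and 4254 in the DPC libraries, and KRT18 between 9824 and 10236. In the HMC libraries KRT19 had rank 10 or 11, KRT7 rank 12, KRT8 rank 14 and KRT18 rank 83 or 84. In DPC, KRT19 was highest and KRT18 lowest in each library, but KRT8 exceeded KRT7 in the first library and KRT7 exceeded KRT8 in the other two, so the order of these neighbours lay within the spread between cultures. In each HMC library the order was KRT19, then KRT7, then KRT8, then KRT18. The summed level of the 4 genes was 38.6, 35.0 and 42.1 FPKM in DPC and 11996 to 12317 FPKM in HMC, or 0.00638 to 0.00759% of all FPKM in DPC and 1.85 to 1.89% in HMC.

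The second KRT8 row (ENSBGRG00000009102) measured 0.468, 0.212 and 0.0524 FPKM in DPC, against 76.3, 70.1 and 68.5 FPKM in HMC. It too was lower in DPC without overlap, with a log2 difference of -5.88 (SE 0.12, limma adjusted p = 1.55e-09). In DPC it rested on 9, 4 and 1 recovered reads and ran at 0.529 to 5.35% of the main row, against 2.10 to 2.198% in HMC. The sources used here do not say whether it is a second copy of the gene, and rows of similar sequence may exchange reads. Adding it to the main row gave a log2 difference of -8.46.

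The question of balance is how much type I chain mRNA there was for each unit of type II chain mRNA, per length. The ratio of KRT18 plus KRT19 over KRT7 plus KRT8 was 1.28, 1.28 and 1.04 in DPC, against 0.722, 0.717 and 0.724 in HMC. Type I mRNA thus exceeded type II mRNA in each DPC library and fell short of it in each HMC library. The means were 1.201 ± 0.138 in DPC and 0.721 ± 0.00380 in HMC (SD, n = 3 each), a log2 difference of 0.73 (SE 0.10). The groups did not overlap, and the two-sided exact permutation p was 0.1, the smallest that 3 against 3 allows. Over the 8 ratios compared, the adjusted p of this exact test was 0.114, so no ratio can pass a threshold of 0.05 by this exact test.

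The 2 pairs, KRT19 with KRT7 and KRT18 with KRT8, differed in opposite directions, each without overlap between the groups. The crossed ratios did so as well. Their log2 differences were 0.89 for KRT19 to KRT8 and -0.41 for KRT18 to KRT7 (SE 0.11 and 0.17, exact permutation p = 0.1, adjusted 0.114, for each). The KRT19 to KRT7 ratio was 2.40, 2.17 and 1.83 in DPC, against 1.13, 1.10 and 1.10 in HMC. Each DPC library lay above each HMC library, with a log2 difference of 0.93 (SE 0.11, exact permutation p = 0.1, adjusted 0.114). By recovered reads, KRT19 made up 77.0%, 75.2% and 71.9% of the KRT19 and KRT7 reads in DPC, and the 95% exact binomial (Clopper-Pearson) intervals of these shares ran from 68.6% at the lowest to 79.98% at the highest. The HMC shares were 60.5 to 61.3%, outside the interval of each DPC library.

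The KRT18 to KRT8 ratio was 0.239, 0.216 and 0.190 in DPC, against 0.285, 0.294 and 0.301 in HMC. Each DPC library lay below each HMC library, with a log2 difference of -0.45 (SE 0.10, exact permutation p = 0.1, adjusted 0.114). This value depends on the low KRT18 level in DPC, since adding 1 FPKM to both genes turned the difference to 0.02. KRT18 made up 17.7%, 16.3% and 14.6% of the KRT18 and KRT8 reads in DPC, with exact 95% binomial intervals of 12.8 to 23.4%, 11.0 to 22.8% and 10.3 to 19.8%. The HMC shares were 20.4, 20.9 and 21.3%, which lie within the intervals of the first and second DPC library and above that of the third. At this depth the pair difference was therefore not detectable in those libraries taken singly, and these intervals cover counting error only.

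Ratios within each type were compared as well. For the type II chains, the KRT8 to KRT7 ratio was 1.07, 0.839 and 0.926 in DPC and 0.943, 0.902 and 0.883 in HMC. These groups overlapped, and the log2 difference was 0.05 (SE 0.10, exact permutation p = 0.8, adjusted 0.8), which came to -0.04 without the first DPC library. For the type I chains, the KRT19 to KRT18 ratio was 9.40, 11.97 and 10.4 in DPC and 4.23, 4.13 and 4.13 in HMC, and each DPC library lay above each HMC library. The log2 difference of that ratio was 1.34 (SE 0.10, exact permutation p = 0.1, adjusted 0.114). It depends on the low KRT18 level in DPC, and with 1 FPKM added to both genes, an alternative chosen after seeing the data, the difference was 0.78. KRT19 made up 49.7 ± 2.78% of the summed level of the set in DPC and 33.8 ± 0.146% in HMC, and KRT18 made up 4.74 ± 0.583% in DPC and 8.11 ± 0.0853% in HMC (SD, n = 3 each).

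**Figure D2:**
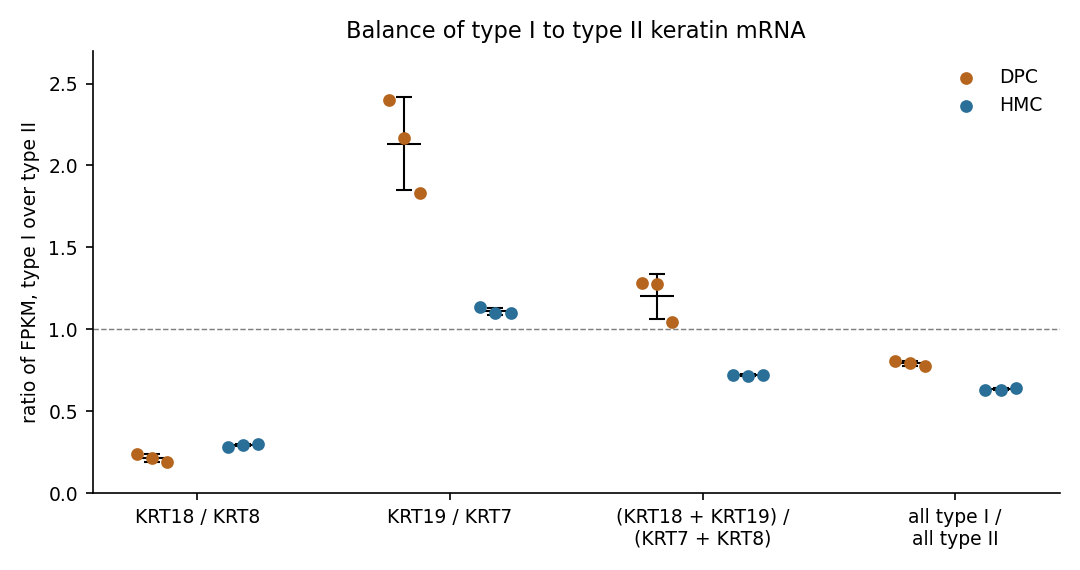
Ratio of type I over type II keratin FPKM in the 3 DPC libraries, left of the 3 HMC libraries, for the 2 pairs, for the set of 4 and for all typed keratin rows. Points are libraries, bars give the mean and SD, and the dashed line marks equal levels. The DPC points lie above the HMC points for KRT19 over KRT7, for the set and for all typed rows, and below them for KRT18 over KRT8.

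The other keratins of the table place the set among its family. The table holds 30 rows of 24 keratin symbols of known type, of which 17 had a mean of at least 0.5 FPKM and were tested, while the other 13 averaged at most 0.279 FPKM. Of those tested, 15 were lower in DPC, the 4 genes and the second KRT8 row included, 1 was higher in DPC and 1 was not called. Over all tested genes, 46.2% were lower and 29.7% higher in DPC. With the 4 genes included, the tested type I genes had a median log2 difference of -2.45 (n = 10) and the type II genes one of -7.15 (n = 5), beside -0.15 for all tested genes.

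Among the other type II keratins, KRT5 of the basal epidermal layer measured 44.2, 30.3 and 39.7 FPKM in DPC and averaged 1083 ± 59.8 FPKM in HMC (SD, n = 3). It was lower in DPC with a log2 difference of -4.81, and DPC held 3.52% of the HMC level, more than for any of the 4 simple epithelial keratins. KRT80, a type II keratin found in many epithelia, averaged 2.83 FPKM in DPC against 537 FPKM in HMC, and KRT6C (KRT6E in the table), of the wound-induced KRT6 group, averaged 10.8 FPKM in DPC against 193 FPKM in HMC. Both passed the test, with DPC at 0.527% and 5.60% of HMC.

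Among the other type I keratins, KRT23 (Haik1) averaged 0.135 FPKM in DPC against 281 FPKM in HMC, and KRT15, of basal and follicle stem cells, averaged 0.166 FPKM in DPC against 150 FPKM in HMC. Both were lower in DPC, and their DPC levels of 0.0480% and 0.111% of HMC were below that of KRT18. KRT17, induced in wounds and found in hair follicles, measured 20.6, 11.8 and 15.2 FPKM in DPC and averaged 141 ± 5.55 FPKM in HMC, so that DPC held 11.2% of the HMC level. KRT17 was lower in DPC with a log2 difference of -3.11 (SE 0.16, limma adjusted p = 4.74e-07).

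KRT14 and KRT10 did not share the direction and were singled out after their values were seen. KRT14, the usual partner of KRT5, measured 16.5, 12.4 and 19.7 FPKM in DPC, against 15.4, 14.7 and 14.9 FPKM in HMC. The groups overlapped, and the limma adjusted p was 0.605. Without the second DPC library, the lowest, KRT14 passed as higher in DPC by 0.25 on the log2 scale (limma adjusted p = 0.0348). KRT10, a keratin of the differentiating epidermis, averaged 1.74 FPKM in DPC against 1.22 FPKM in HMC and passed as higher in DPC by 0.31 (limma adjusted p = 0.014), but missed the threshold without the first DPC library (limma adjusted p = 0.0516).

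The 4 simple epithelial keratins made up 28.3, 33.6 and 31.4% of all typed keratin FPKM in DPC, against 82.7, 82.9 and 83.3% in HMC. In DPC, KRT5 alone made up 30.4 ± 1.78%, KRT14 12.9 ± 1.55% and KRT17 12.6 ± 2.201% of keratin FPKM, against 7.42 ± 0.282%, 0.103 ± 0.000889% and 0.969 ± 0.0505% in HMC (SD, n = 3 each). KRT19 ranked 2 or 3 among the keratin rows of each DPC library and 1 in each HMC library, and KRT18 ranked 9 or 10 in DPC and 5 in HMC. Over all typed rows, type I over type II mRNA was 0.807, 0.795 and 0.776 in DPC and 0.631, 0.631 and 0.643 in HMC, a log2 difference of 0.32 (SE 0.02, exact permutation p = 0.1, adjusted 0.114) that came to 0.20 under quantile normalization. Type II mRNA was thus in excess in both groups over the typed rows. This count leaves out 14 type I and 16 type II symbols that had no match, and keratin rows without a symbol, which were not typed.

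**Figure D3:**
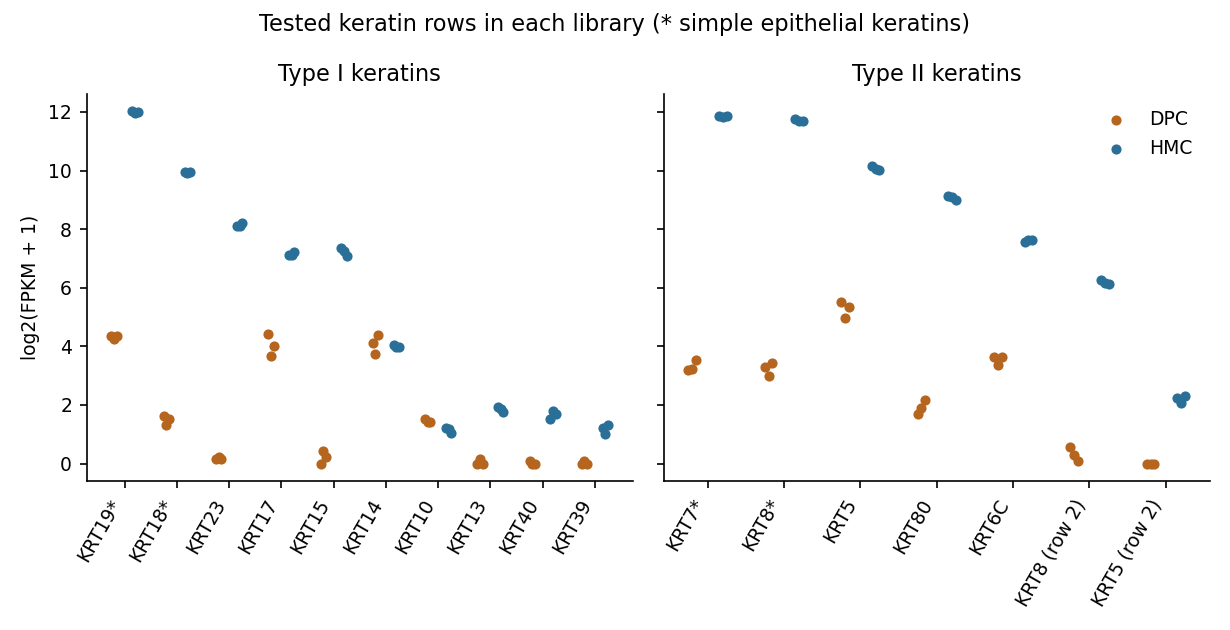
Level of each tested keratin row as log2(FPKM + 1) in the 3 DPC libraries, left of the 3 HMC libraries, for type I keratins (left panel) and type II keratins (right panel), ordered by the mean of all libraries. Asterisks mark the simple epithelial keratins, which hold the first and second place of each panel. KRT14 and KRT10 are the rows whose DPC points are not all below their HMC points.

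Other intermediate filament genes did not share one direction. Of 9 tested, 6 were higher in DPC and 3 lower, beside 29.7% and 46.2% of all tested genes. The median log2 difference was 0.45, and these directions stayed under both rescalings. The 6 include the nuclear lamins LMNA, LMNB1 and LMNB2, at 0.43, 0.45 and 0.47, named after their values were seen. With at least a 2-fold difference, 2 were higher in DPC and 2 lower, beside 11.0% and 16.1% of all tested genes. VIM, which encodes vimentin, the filament protein of mesenchymal cells, measured 5668, 5252 and 5632 FPKM in DPC and averaged 384 ± 43.5 FPKM in HMC. VIM exceeded the summed level of the 4 keratins 133.8 to 149.9 times in DPC, whereas in HMC it stood at 0.0294 to 0.0361 of that sum. NES (Nbla00170), the nestin of progenitor cells, averaged 235 FPKM in DPC against 17.0 FPKM in HMC and was also higher in DPC. NEFH (KIAA0845), a neurofilament chain, averaged 0.320 FPKM in DPC against 3.50 FPKM in HMC and was lower in DPC.

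Keratin filaments are held at desmosomes and hemidesmosomes, the rivets between cells and to the basement membrane. Of 16 tested genes of these anchors and of linker proteins, 15 were lower in DPC, as were 46.2% of all tested genes, and none was higher in the deposited scaling, with a median log2 difference of -5.02. The count includes a row named DSC3 whose annotation may belong to a related gene, so which gene it is remains uncertain. ITGA6, the integrin chain of hemidesmosomes, averaged 1.45 FPKM in DPC against 193 FPKM in HMC. The desmosomal cadherins DSG2 (CDHF5) and DSG3 averaged 0.266 and 0.563 FPKM in DPC and 93.0 and 96.9 FPKM in HMC, and the desmosome gene PERP (KCP1) averaged 7.44 FPKM in DPC against 317 FPKM in HMC. PLEC (Plec1), which encodes plectin, a linker that also binds vimentin, averaged 88.5 ± 0.744 FPKM in DPC against 91.6 ± 1.65 FPKM in HMC. PLEC was not called (limma adjusted p = 0.263), and it passed as higher in DPC by 0.11 with median-of-ratios rescaling and by 0.26 with quantile normalization. It was singled out after its values were seen.

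Proteins that bind, modify or clear keratins differed less. Of 25 tested, 20 were lower in DPC (46.2% over all tested genes), none was higher and 5 were not called, with a median log2 difference of -0.40. After median-of-ratios rescaling 14 were lower and 2 higher in DPC, and after quantile normalization 12 were lower and 5 higher, so the direction of the smaller differences depends on the scaling. The calls of the genes named next held under both. TGM2, a transglutaminase that crosslinks keratins in liver inclusions, averaged 3.00 FPKM in DPC against 351 FPKM in HMC. SFN, the epithelial 14-3-3 sigma protein that binds KRT17, averaged 5.32 FPKM in DPC against 544 FPKM in HMC, and FAM83H, which organizes keratin filaments, averaged 2.39 FPKM in DPC against 69.7 FPKM in HMC. The chaperone gene HSPA8 (HSC70), the most abundant of the list, averaged 1167 FPKM in DPC against 1574 FPKM in HMC and was lower in DPC, with a log2 difference of -0.43.

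Genes listed here as companions of these keratins in simple epithelia shared their direction. Some of them, such as EPCAM and CDH1, mark epithelia in general. Each of the 17 tested was lower in DPC, a direction called for 46.2% of all tested genes, with a median log2 difference of -6.12. WFDC2, a secreted protein of glandular and airway epithelia, averaged 0.911 FPKM in DPC against 683 FPKM in HMC, and ST14 (PRSS14), the membrane protease matriptase, averaged 0.341 FPKM in DPC against 340 FPKM in HMC.

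The low keratin levels in DPC can be read beside these genes. The DPC level of the 17 companions was 0 to 12.9% of their HMC level, with a median of 0.186%, and that of the 4 keratins was 0.186 to 0.468%. Of the 17, 13 lay at or under the share of KRT19 and 9 under the share of KRT18. The summed level of the list, untested genes included, was 31.9 to 41.9 FPKM in DPC and 5141 to 5487 FPKM in HMC. The defining epithelial genes EPCAM (TACSTD1) and CDH1 averaged 0.443 and 0.368 FPKM in DPC and 242 and 195 FPKM in HMC. Whether a few epithelial cells among the DPC gave their keratin reads was not tested.

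**Figure D4:**
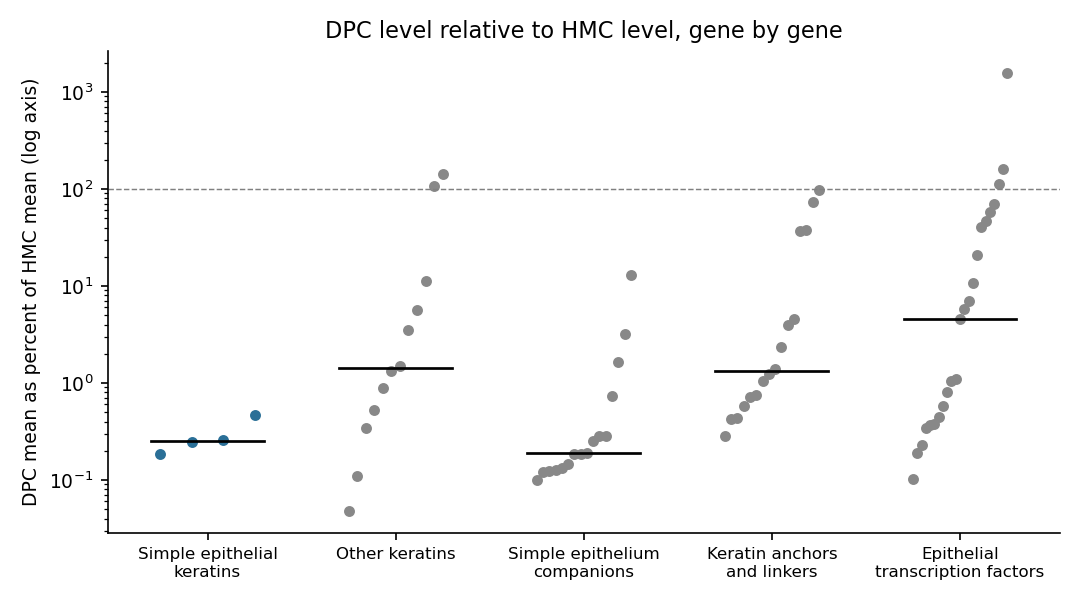
DPC mean as percent of the HMC mean (log axis) for the tested genes of 5 groups. Each point is a gene row, ordered by value from left to right within its group. The short line is the median of the points shown, the dashed line marks equal levels, and rows at 0 in DPC are left out. The 4 simple epithelial keratins lie between 0.186 and 0.468%. The other keratin rows, which include the second KRT8 row, spread from 0.0480 to 143%.

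Epithelial transcription factors were mostly lower in DPC, at 20 of 23 tested beside 46.2% of all tested genes, with 2 higher, 1 not called and a median log2 difference of -2.83. EHF, an ETS factor of epithelia, averaged 0.121 FPKM in DPC against 119 FPKM in HMC. ELF3, another epithelial ETS factor, averaged 0.391 FPKM in DPC against 48.7 FPKM in HMC. JUNB, a subunit of the AP-1 factor and the most abundant of the list, averaged 89.0 FPKM in DPC against 222 FPKM in HMC. KLF4 (EZF) and CEBPB went the other way and were singled out after their values were seen, with 35.1 and 175 FPKM in DPC and 2.22 and 109 FPKM in HMC.

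All 5 tested factors that repress epithelial genes or mark mesenchyme were higher in DPC, where 29.7% of all tested genes were called in that direction, with a median log2 difference of 4.14. TWIST1 averaged 380 FPKM in DPC against 2.90 FPKM in HMC, ZEB2 (HRIHFB2411) averaged 34.5 FPKM in DPC against 0.668 FPKM in HMC, and TWIST2 averaged 85.0 FPKM in DPC against 3.996 FPKM in HMC. These differences were 6.67, 4.42 and 4.14 on the log2 scale.

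**Figure D5:**
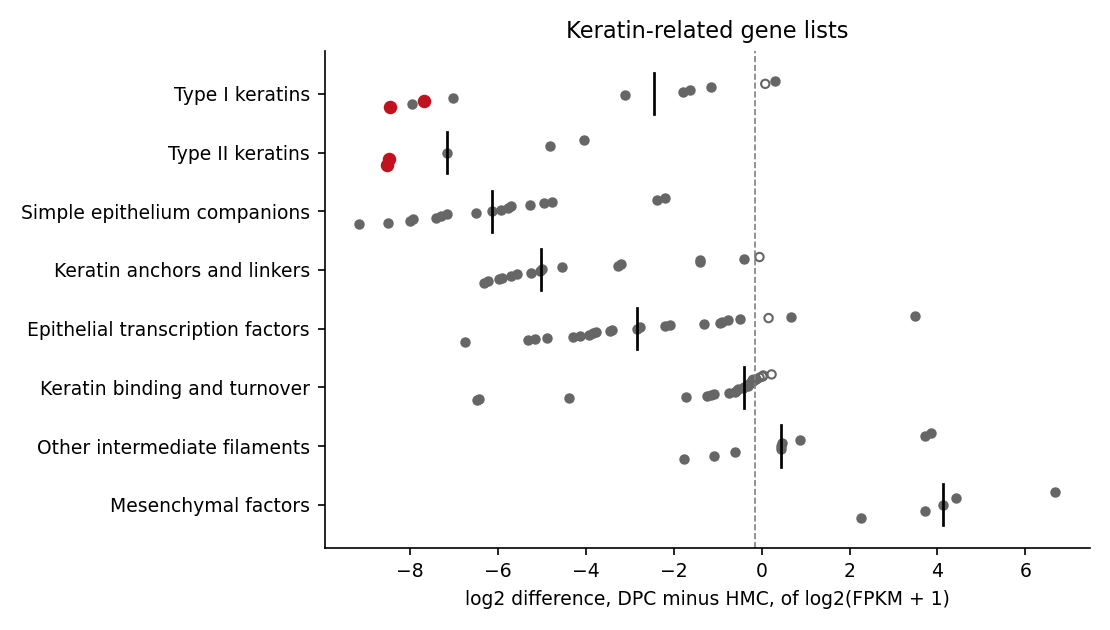
Log2 difference, DPC minus HMC, of each tested gene of 8 keratin-related lists. Filled points passed the test, open points did not, red points are the simple epithelial keratins, black lines are list medians, and the dashed line is the median of all tested genes at -0.15. The medians run from -7.15 for type II keratins to 4.14 for mesenchymal factors.

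Markers of other cells that carry simple keratins were also read. Of the Merkel cell genes in the table, KRT20, SYP, CHGA and NEFM lay at or below 0.286 FPKM on average in both groups, while PIEZO2 (C18orf30) and ISL1 were higher in DPC, at 19.0 and 5.40 FPKM in DPC and 0.0827 and 0.545 FPKM in HMC. These 2 were the only tested genes of the list, and 29.7% of all tested genes were higher in DPC. The list summed to 23.0 to 25.5 FPKM in DPC and to 0.514 to 1.33 FPKM in HMC. PIEZO2 gave most of the DPC sum, and 4 of the 10 symbols of the list had no match. Of the 12 sweat gland symbols, 6 had no match. The water channel AQP5 averaged 0.0620 FPKM in DPC against 0 FPKM in HMC. The 3 tested genes, SLC12A2 (NKCC1), ITPR2 and SOX10, were lower in DPC, as were 46.2% of all tested genes. The list summed to 58.4 to 60.1 FPKM in DPC and 213 to 223 FPKM in HMC. SLC12A2, a chloride transporter also used by many other cells, gave most of that sum, with 56.5 FPKM in DPC against 205 FPKM in HMC. SOX10 averaged 0 FPKM in DPC against 1.42 FPKM in HMC, and ITPR2, a calcium channel, averaged 2.52 FPKM in DPC against 10.5 FPKM in HMC. Of the mesothelial genes, UPK3B, CALB2 and HP averaged 0.0702, 0 and 0.0105 FPKM in DPC and 0.179, 0.861 and 0 FPKM in HMC, and 1 was high enough to be tested, PDPN (PSEC0003), at 39.7 FPKM in DPC against 152 FPKM in HMC. The mesothelial list summed to 38.7 to 42.0 FPKM in DPC and 149 to 156 FPKM in HMC. The sebaceous gland list summed to 381 to 411 FPKM in DPC and 811 to 848 FPKM in HMC, but its genes differed in direction. Of 7 tested, 4 were higher in DPC and 3 lower, beside 29.7% and 46.2% of all tested genes. Their median log2 difference was 0.40. Endothelial genes summed to 0.217 to 0.271 FPKM in DPC and 1.12 to 1.26 FPKM in HMC, and immune cell genes to 13.0 to 13.5 FPKM in DPC and 14.7 to 20.1 FPKM in HMC. Within the immune list the directions differed. LAPTM5, a lysosomal protein of blood cells, was higher in DPC, with 9.46 FPKM in DPC against 0.257 FPKM in HMC. AIF1 and CD14, both of macrophages, were lower in DPC, with 0.0511 and 2.47 FPKM in DPC against 6.48 and 10.1 FPKM in HMC. The part of such cells in the keratin levels was not tested.

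Across the 6 libraries, the genes whose centred profile lay nearest to the mean profile of the 4 keratins were listed by the root mean square distance on the log2(FPKM + 1) scale, as a description. The nearest was the row named UNQ757/PRO1488, which the table annotates to tight junctions, at a distance of 0.11, with means of 0.412 FPKM in DPC against 466 FPKM in HMC. LY6G6C, a membrane-anchored protein of the LY6 family, followed at 0.13, with 0.582 FPKM in DPC against 411 FPKM in HMC. Then came ST14 at 0.14, WFDC2 at 0.18 and the tight junction gene CLDN4 at 0.19, with 0.538 FPKM in DPC against 373 FPKM in HMC for CLDN4. The 4 keratins themselves lay at 0.10 for KRT18, 0.11 for KRT8, 0.14 for KRT7 and 0.31 for KRT19, so KRT19 was farther from the mean of the set than those 5 other genes were.

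KRT18 is known in mammals as the type I keratin gene that lies beside KRT8 in the type II cluster, apart from the other type I genes. In the RefSeq gene order of the yak assembly Bosgru_T2T1.0, both lie on chromosome 5 with 0 coding genes between them, EIF4B next to KRT18 and KRT78 next to KRT8. EIF4B, a translation initiation factor, averaged 78.9 FPKM in DPC against 140 FPKM in HMC and was lower in DPC with a log2 difference of -0.81 (limma adjusted p = 6.32e-06). KRT78, a type II keratin, averaged 0.0484 FPKM in DPC against 0.278 FPKM in HMC and was too low to be tested. The large difference was thus shared by KRT8 and KRT18 and not matched in size by EIF4B. KRT78 was too low in both groups for a difference of that size to be seen.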

How the data were processed

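Messenger RNA was measured in 3 DPC and 3 HMC libraries. Per the labels' protocols, RNA was extracted with Trizol and libraries were made with a stranded TruSeq mRNA kit. Per the submitters' processing notes, Trimmomatic, HISAT2 2.2.1.0 and DESeq 1.20.0 were used; the sources used here name neither their roles nor the read counter, genome build or annotation. The authors deposited FPKM per gene, which corrects for gene length and total mapped fragments but not for RNA composition. In 100% of genes the values were whole multiples of one step (relative tolerance 1e-09), and the smallest whole numbers giving these multiples are called recovered reads. A factor shared by all libraries of a gene would be missed, which makes them lower limits.

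The comparison of DPC with HMC used limma 3.58.1 (R 4.3.3) with a trended prior, on values transformed as log2(FPKM + 1), for the 11883 genes that averaged 0.5 FPKM or more. Tests were two-sided and Benjamini-Hochberg adjusted over those genes, with 0.05 as the threshold. For low genes this scale makes differences smaller than they are. Ratios were compared on the log2 scale by exact permutation tests. Python 3.11.15, numpy 2.4.6, pandas 2.3.3, scipy 1.17.1 and matplotlib 3.10.9 were used. Tested on simulated data, the limma procedure recovered 46% of 50 genes changed 1.25-fold. It found 80% of as many changed 1.5-fold, 98% of those changed 2-fold and 100% of those changed 4-fold. The simulation used a fixed spread between libraries and changed few genes, all upward in DPC and none with few reads. In the deposited data 75.9% of tested genes were called, so these rates need not hold there.

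The 4 genes and the 16 gene lists were chosen with earlier results of these data known. Of 246 list symbols, 102 matched the table directly, 78 through older symbols read against its annotation after the table was seen, while 66 had no match and were not used here. Older symbols stand in parentheses. Named are the 4 genes, the 3 most abundant other keratins of each type, up to 3 genes of largest difference and the most abundant gene of each list, and the 5 nearest profiles, except that some genes selected this way are not reported here; marker lists are given by their summed level and defining genes. Keratins share sequence, and the sources used here do not say how shared reads were counted, so single values are uncertain. No 2 replicates were copies, since a chi-square over recovered reads gave 2.57 to 5.54 per gene between them. Alternatives were another pseudocount, other low-value filters, 2 rescalings, a replicate block, a prior with no trend and each library left out. Added after seeing the data were the sum of both KRT8 rows, ratios of recovered reads, and each alternative for the ratios of KRT18 to KRT7, KRT19 to KRT8, KRT8 to KRT7 and KRT19 to KRT18.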

Additional observations from a re-analysis of the deposited data

How the results depend on the processing

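The direction and call of KRT7, KRT8, KRT18 and KRT19 held in 53 of 53 alternatives, with log2 differences of -8.66 to -8.37 for KRT7, -8.61 to -8.27 for KRT8, -9.00 to -8.28 for KRT18 and -7.73 to -7.52 for KRT19. With 1 library left out they were -8.64 to -8.46, -8.57 to -8.34, -8.51 to -8.36 and -7.69 to -7.63 for KRT7, KRT8, KRT18 and KRT19. Of 84 alternatives for ratios, 81 kept the direction. With 1 FPKM added to both genes, the KRT18 to KRT8 difference reversed to 0.0194 (exact permutation p = 1) and that of KRT18 to KRT7 to 0.0767 (exact permutation p = 0.7), beside -0.45 and -0.41, by construction through the low KRT18 level. The KRT8 to KRT7 difference of 0.05 reversed to -0.0447 without the first DPC library; the cause was not tested. With 1 library left out, the log2 difference was 0.68 to 0.83 for type I to type II, -0.53 to -0.37 for KRT18 to KRT8, 0.84 to 1.04 for KRT19 to KRT7, -0.58 to -0.31 for KRT18 to KRT7, 0.79 to 0.98 for KRT19 to KRT8, -0.0447 to 0.13 for KRT8 to KRT7, 1.248 to 1.42 for KRT19 to KRT18 and 0.31 to 0.34 over all typed keratin rows.

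Calls over all genes ranged from 6808 to 9851 beside 9020, and 39.1% of them were higher in DPC, against 53.6% under quantile normalization and 48.8% under median-of-ratios size factors. Of 104 alternatives for list counts, 102 stayed within 1.5 times. Type I keratin calls numbered 5 at a filter of 5 FPKM, where fewer genes are tested, beside 9, and type II calls numbered 8 with no filter, where more are tested, beside 5. Replicate numbers were not used as pairs in the main test. Deviations of same-numbered libraries correlated at 0.02, 0.03 and 0.006, which cannot show whether these libraries shared an animal or a batch. With the replicate number as a block, 8924 genes were called, the 4 keratins included, and the exact permutation p was 0.25, the smallest that pairing allows, for each ratio except KRT8 to KRT7, at 0.75. Counting error is largest for KRT18 in DPC, at 27 to 38 recovered reads.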
